A study of Mus musculus with 12 samples.

Results

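The genes described here encode the subunits of the 5 complexes of oxidative phosphorylation. They are the genes in the peak lists of H4K8ac whose symbol begins with Nduf (followed by a, b, c, s or v and a digit), Cox4 to Cox8, Uqcr or Atp5, or is Sdha, Sdhb, Sdhc or Sdhd, without names that hold -ps, which mark pseudogenes. The rule found 80 of the 23433 genes with a peak in any list, and 79 of the 80 had a peak of the promoter class in at least 1 library. By complex they were 36 genes of complex I, 4 of complex II, 7 of complex III, 16 of complex IV and 16 of complex V, plus Cox7a2l, a relative of a complex IV subunit that is known for joining complexes III and IV. The rule follows gene symbols, but a gene also needed a peak assigned to it in at least 1 list. Of 90 genes in the RefSeq annotation that match the rule, 10 had no row in the lists and are not among the 80. The 80 genes include close copies and isoforms of muscle, lung or testis, which are described separately.

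H4K8ac is histone H4 acetylated at lysine 8, mapped here by sequencing the DNA pulled down with an antibody to it (ChIP-seq), in oligodendrocyte progenitor cells (OPCs), the glial precursors of myelinating oligodendrocytes. Cells came from the forebrain of Pdgfrα-H2BEGFP mice, in which a nuclear fluorescent protein follows the Pdgfra gene of OPCs, at postnatal day 5 (neonatal) or day 60 (adult). Every mouse in both groups carried this reporter and none was treated, per the labels. There were 3 biological replicates of H4K8ac at each age, and the 6 input libraries were not used here. The labels do not give the number of animals behind a library. Each library gives a mean over its sorted cells, so a peak in more cells and more acetylation per cell cannot be told apart.

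In oxidative phosphorylation, complexes I to IV of the inner mitochondrial membrane pass electrons from NADH and succinate to oxygen and pump protons, and complex V, the ATP synthase, uses the proton gradient to make ATP. A few subunits are encoded by mitochondrial DNA, but the genes described here are nuclear, are read in nearly every cell type and often begin in CpG-rich promoters. The factors NRF1, GABP (an ETS protein) and YY1 are known to bind many of these promoters. Oligodendrocyte lineage cells are known for a high demand for ATP during myelination.

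To show what the promoters look like, 7 windows are printed 5′ to 3′ on the gene's own strand, from 250 bases before to 50 bases after the start, as RefSeq gives them on GRCm38.p6. Capitals mark matches, on either strand, to the 5 motifs searched. The core of the NRF1 motif was spelled TGCGCA. The motif of ETS proteins such as GABP was spelled CCGGAAG. That of the factor YY1 was spelled AAGATGG. The GC box was spelled GGGCGG, and the TATA box was spelled TATAAA. Ndufs6 (chr13:73328433-73328732, minus strand) is shown for a large difference between the ages in the authors' deposited table, and Ndufa11 (chr17:56717512-56717811, plus strand) because its assigned promoter peaks were in adult lists only. Sdhd (chr9:50603800-50604099, minus strand) and Atp5j (chr16:84834927-84835226, minus strand) start back to back with a neighbouring gene. Cox6a1 (chr5:115348909-115349208, minus strand) and Cox7a2 (chr9:79759804-79760103, minus strand) are isoforms made in most tissues, set beside Cox7a1 (chr7:30183921-30184220, plus strand), the heart and muscle form of Cox7a2.
Ndufs6: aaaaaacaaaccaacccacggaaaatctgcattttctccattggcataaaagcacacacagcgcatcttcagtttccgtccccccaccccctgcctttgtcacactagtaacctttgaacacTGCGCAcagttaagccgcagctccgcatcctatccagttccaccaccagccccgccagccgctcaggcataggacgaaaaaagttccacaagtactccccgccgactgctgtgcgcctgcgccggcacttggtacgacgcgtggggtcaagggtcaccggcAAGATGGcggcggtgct
Ndufa11: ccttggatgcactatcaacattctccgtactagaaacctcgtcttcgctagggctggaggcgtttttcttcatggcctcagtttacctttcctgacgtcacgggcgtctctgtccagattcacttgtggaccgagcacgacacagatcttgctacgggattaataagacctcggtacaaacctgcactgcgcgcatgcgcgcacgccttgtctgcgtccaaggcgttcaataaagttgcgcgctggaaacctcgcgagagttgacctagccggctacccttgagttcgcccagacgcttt
Sdhd: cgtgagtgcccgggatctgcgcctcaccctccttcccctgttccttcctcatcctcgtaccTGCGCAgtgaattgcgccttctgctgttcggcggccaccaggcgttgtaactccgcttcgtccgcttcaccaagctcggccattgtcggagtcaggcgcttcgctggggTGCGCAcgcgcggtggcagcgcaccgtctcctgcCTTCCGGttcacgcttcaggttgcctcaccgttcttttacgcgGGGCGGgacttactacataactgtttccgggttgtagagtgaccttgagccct
Atp5j: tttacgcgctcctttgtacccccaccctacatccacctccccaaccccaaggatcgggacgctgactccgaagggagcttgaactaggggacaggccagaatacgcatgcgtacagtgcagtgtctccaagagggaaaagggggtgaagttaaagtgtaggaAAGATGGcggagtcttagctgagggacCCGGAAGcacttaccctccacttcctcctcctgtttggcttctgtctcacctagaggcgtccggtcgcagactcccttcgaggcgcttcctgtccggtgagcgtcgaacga
Cox6a1: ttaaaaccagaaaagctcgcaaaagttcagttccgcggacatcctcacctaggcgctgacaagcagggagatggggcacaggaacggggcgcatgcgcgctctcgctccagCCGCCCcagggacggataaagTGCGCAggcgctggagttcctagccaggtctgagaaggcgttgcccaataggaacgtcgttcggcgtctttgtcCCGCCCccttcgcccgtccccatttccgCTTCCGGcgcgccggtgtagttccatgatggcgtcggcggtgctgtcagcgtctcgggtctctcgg
Cox7a2: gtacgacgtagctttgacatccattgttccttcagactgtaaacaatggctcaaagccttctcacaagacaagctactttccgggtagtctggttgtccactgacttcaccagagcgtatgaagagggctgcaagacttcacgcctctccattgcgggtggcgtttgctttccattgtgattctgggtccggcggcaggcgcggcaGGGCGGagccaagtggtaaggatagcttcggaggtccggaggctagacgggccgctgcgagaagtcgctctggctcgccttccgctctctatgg
Cox7a1: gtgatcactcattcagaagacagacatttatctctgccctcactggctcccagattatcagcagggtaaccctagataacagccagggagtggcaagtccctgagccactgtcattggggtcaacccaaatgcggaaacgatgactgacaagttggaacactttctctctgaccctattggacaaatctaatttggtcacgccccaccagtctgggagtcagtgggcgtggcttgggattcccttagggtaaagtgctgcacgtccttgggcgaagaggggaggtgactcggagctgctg
Of these windows, Sdhd and Cox6a1 each held 4 matches, Ndufs6 and Atp5j 2, Cox7a2 1, and Ndufa11 and Cox7a1 none. The letters CG occurred 32 times in the Cox6a1 window, 20 times in that of Cox7a2 and 7 times in that of Cox7a1. A match is a match of letters and not a measured binding site, and a window without a match may hold a motif in another spelling.

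The number of peaks differed between libraries. Neonatal replicates 1 and 3 had 9097 and 7353 peaks, neonatal replicate 2 had 31189, and the adult libraries had between 72278 and 77002. Neonatal replicate 2 thus stood apart from its own group, and the counts below are given with and without it where it matters. Reads per library are not in the lists. Of 8 markers of OPCs, fixed as a list, all 8 carried a promoter peak in every neonatal library. In the adult libraries 8, 7 and 7 did, for replicates 1, 2 and 3. Among the 7353 strongest peaks of each list, 8, 7 and 8 had one in neonatal libraries and 4 in each adult library. Pdgfra was lower in adult cells by the authors' deposited sites (log2 fold change -1.23, adjusted p = 0.0270). The other 4 OPC markers with a promoter site were higher. Whether OPC identity was equal at both ages was not tested. Markers of mature oligodendrocytes differed with age, from 3, 3 and 1 of 8 genes marked at the neonatal age to all 8 in every adult library. Their summed promoter cover ranged from 435 to 3325 bp in neonatal and from 59181 to 92539 bp in adult libraries. Among the strongest peaks, 3, 3 and 1 of these genes had one in neonatal and 6, 7 and 7 in adult libraries. Markers of other cells were found most in neonatal replicate 2 among the neonatal libraries. Of 8 neuronal genes 0, 5 and 1 had a promoter peak at the neonatal and 5, 3 and 3 at the adult age, of 8 astrocyte genes 2, 6 and 0 and 3, 2 and 4, and of 8 fibroblast and pericyte genes 0, 4 and 0 and 1, 2 and 1. Microglial and endothelial genes were at 0 in the neonatal libraries with at most 1 and 2 of 8 in the adult libraries. The part of mature oligodendrocytes or other cells in the results below was not tested.

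Most oxidative phosphorylation genes carried H4K8ac at their promoter in adult OPCs, and the covered length was several times that of neonatal OPCs. Promoter peaks are those that the authors' annotation places within 3000 bp of a transcription start. In the order of replicates 1, 2 and 3, which is kept below, they lay on 27, 70 and 22 of the 80 genes at the neonatal age and on 70, 69 and 71 at the adult age, which is 39.7 ± 26.4 and 70.0 ± 1.00 genes (SD, n = 3 each). The difference of 30.3 genes rested on 2 neonatal libraries, since neonatal replicate 2 marked as many genes as the adult libraries did. As shares these are 33.8%, 87.5% and 27.5% at the neonatal and 87.5%, 86.3% and 88.8% at the adult age, beside 34.4%, 73.9% and 30.3% and then 83.6%, 81.5% and 83.5% of all 18548 genes with a promoter peak in any library.

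The covered length separated the ages without overlap. Promoter peaks of the 80 genes covered 7545, 36461 and 5517 bp in the neonatal libraries and 59604, 59101 and 78782 bp in the adult ones. The geometric mean of the adult libraries was 5.68 times that of the neonatal ones, and 10.1 times without neonatal replicate 2. The same ratio over all 18548 genes with a promoter peak was 6.36, and 10.4 without that library. The ratio on these genes was thus close to that over all genes, and their share of all promoter-covered bases was 0.292%, 0.356% and 0.262% in neonatal and 0.272%, 0.267% and 0.267% in adult libraries. As a share of the number of promoter peaks the genes took 0.361%, 0.437% and 0.352% in neonatal and 0.318%, 0.310% and 0.321% in adult libraries. The adult mean was lower by 0.0668 percentage points, and counting only peaks within 1000 bp of a start turned the sign of this difference (0.00676).

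Gene by gene, 50 of the 80 had more promoter cover in every adult than in every neonatal library, beside 60.1% of all genes, and none had less in every adult library, beside 0.399%. Without neonatal replicate 2 the count was 63, beside 71.6%. A promoter peak in all 3 adult libraries was found for 64 genes, beside 73.1% of all genes, and in all 6 libraries for 15, beside 21.5%. Exactly 1 gene, Ndufa11, had a promoter peak in all adult libraries and none in neonatal ones, beside 12.1%, and the reverse held for none, beside 0.264%. Without neonatal replicate 2 the first of these counts was 33 genes, beside 36.3%, because 32 of the 80 had a peak in all 3 adult libraries and, among the neonatal ones, in replicate 2 alone. That pattern was found for 4486 of all 18548 genes. Whatever the adult libraries held, replicate 2 was the only marked neonatal library for 46.25% of the 80 genes, beside 34.2% of all genes. The exact two-sided permutation test of single genes cannot go below p = 0.1 with 3 libraries at each age. Of the 79 genes tested 50 reached that value, beside 11217 of all 18548 genes. The adjusted p was 0.165 over 18548 genes at the least, and 0 genes had an unadjusted p below 0.05.

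**Figure D1:**
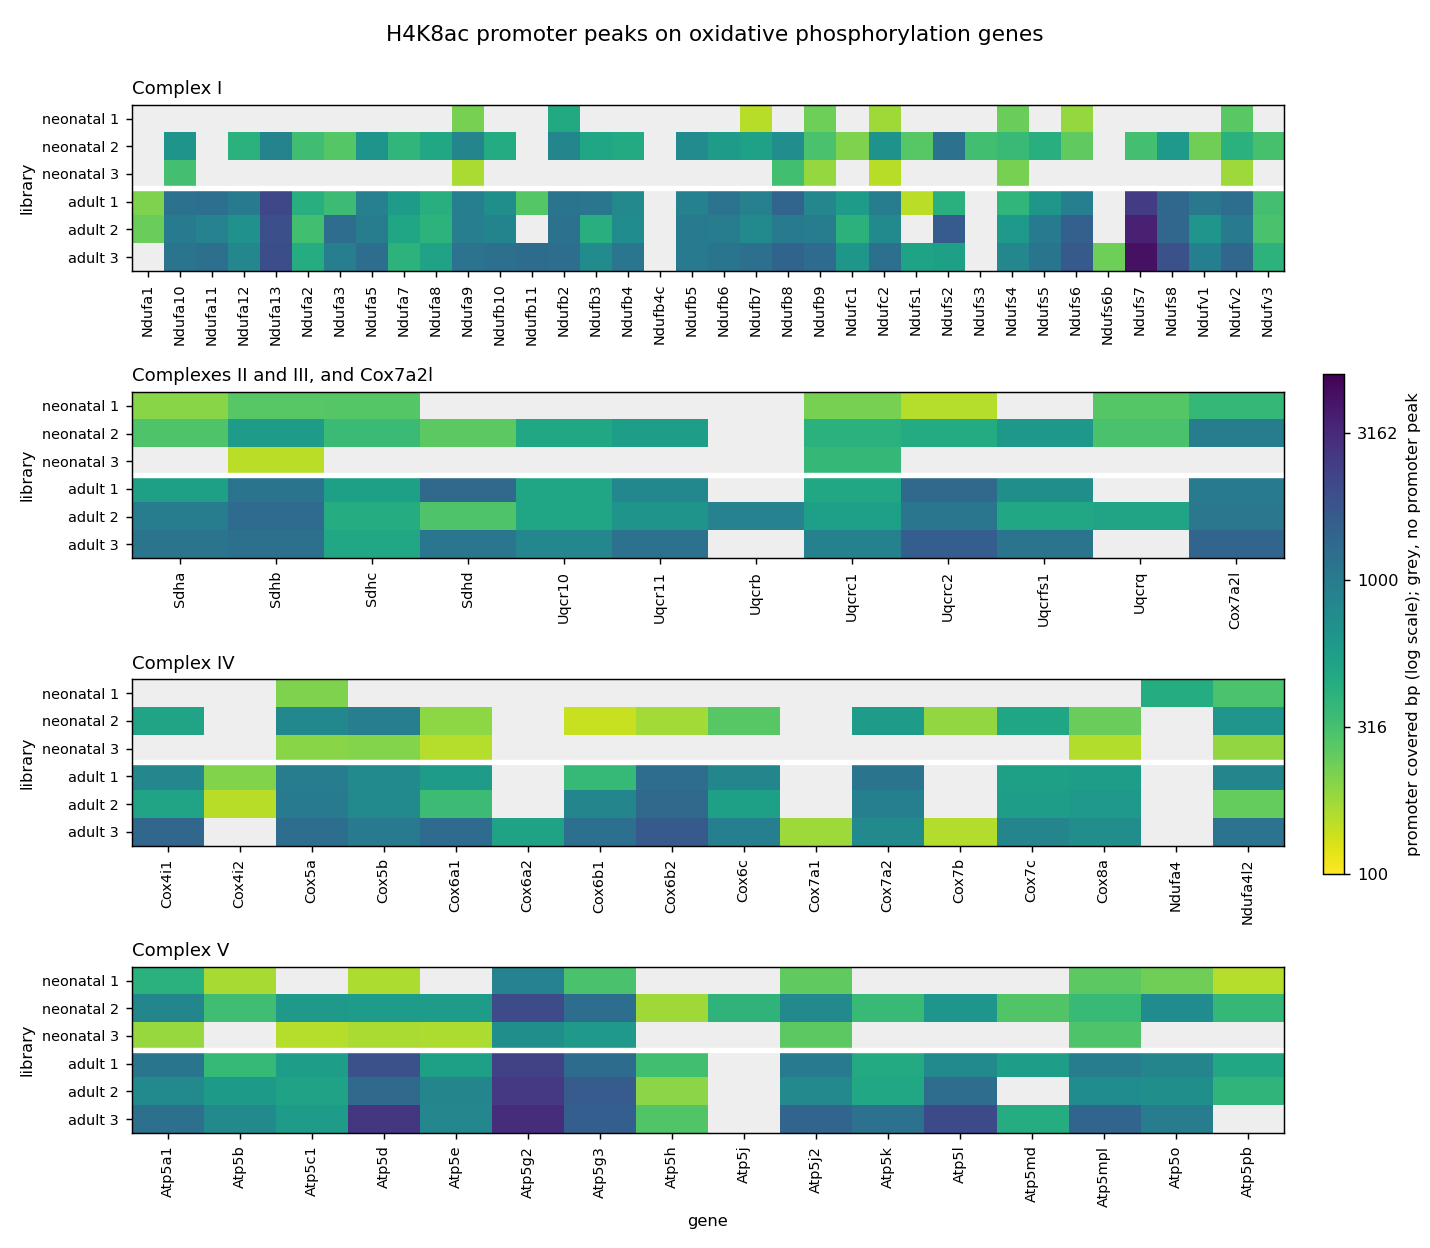
Promoter bp covered by H4K8ac peaks (colour, log scale; grey, no promoter peak) for each of the 80 genes (columns) in the 6 libraries (rows, neonatal above the white line), by complex. Neonatal replicates 1 and 3 have peaks on 27 and 22 genes, while neonatal replicate 2 and the adult libraries have peaks on 69 to 71.

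Complex I, which takes electrons from NADH, had the largest ratio of covered length between the ages among the 5 complexes. Promoter peaks lay on 8, 31 and 7 of its 36 genes in neonatal and on 33, 31 and 33 in adult libraries. They covered 1952, 15648 and 1552 bp in neonatal and 28969, 29786 and 36620 bp in adult libraries, a ratio of 8.74 that was 18.2 without neonatal replicate 2. No other complex had a ratio above 6.15, and whether the complexes differ was not tested.

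The subunits that bind NADH and its flavin sit at the tip of complex I. Ndufv1, which holds the flavin, had 0, 234 and 0 bp of promoter cover in neonatal and 1043, 654 and 931 bp in adult libraries. Ndufv2, an iron-sulfur subunit beside it, had 274, 414 and 177 bp in neonatal and 1220, 1006 and 1377 bp in adult libraries. In both genes each adult library lay above each neonatal one, and Ndufv2 was among 5 complex I genes with a peak in all 6 libraries, with Ndufa9, Ndufb9, Ndufc2 and Ndufs4. Ndufb9, a subunit of the membrane arm, had 236, 306 and 185 bp in neonatal and 823, 961 and 1269 bp in adult libraries, and Ndufs4, an accessory subunit whose loss causes a mitochondrial disease of the brain, had 242, 359 and 222 bp and 379, 616 and 821 bp. Read by position, whichever gene a peak was assigned to, Ndufa13 and Ndufb2 were also covered in each neonatal library, which makes 7 genes of complex I.

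Ndufs7, the iron-sulfur subunit next to the quinone site, had 0, 324 and 0 bp in neonatal and 2516, 3502 and 4192 bp in adult libraries. Much of this cover lay at an alternative start inside the gene, 3866 bp from the start in RefSeq, next to the gene Gamt. Ndufs6, a small zinc-binding subunit, had 187, 261 and 0 bp against 926, 1500 and 1652 bp. Ndufa13, a membrane-arm subunit, had 0, 875 and 0 bp against 2172, 1942 and 1966 bp. All 3 genes had non-overlapping ages. Ndufa11, a membrane-arm subunit that bridges to complex III, had no assigned promoter peak in any neonatal library and 1205, 890 and 1177 bp in adult libraries, but peaks assigned to its neighbour Vmac reached its promoter in 2 neonatal libraries. It thus drops out of the adult-only class once peaks are read by position.

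Some complex I genes lacked a promoter peak in at least 1 adult library. Ndufb4c and Ndufs6b are close copies of Ndufb4 and Ndufs6, and they had promoter cover in none of the 6 libraries and in adult replicate 3 alone (236 bp). Reads from near-identical copies may be split or dropped in alignment, so a missing peak on them is uncertain. Ndufa1 and Ndufb11 lie on the X chromosome and had a promoter peak in 2 of 3 adult libraries and no neonatal one, with 213, 241 and 0 bp and 279, 0 and 1258 bp in adult replicates 1, 2 and 3. The other X-linked gene, the complex IV gene Cox7b, had 0, 190 and 0 bp in neonatal and 0, 0 and 158 bp in adult libraries. None of these 3 genes had a promoter peak in all 3 adult libraries, while 334 of 471 X-linked genes with any promoter peak did. By position, Ndufa1 was covered over 693, 436 and 695 bp and Ndufb11 over 930, 1111 and 1258 bp in adult libraries, through peaks assigned in part to Rnf113a1 and Rbm10, so that 2 of the 3 genes were marked in all adult libraries, beside 366 of the 471. Ndufs1, the largest iron-sulfur subunit, had 151, 0 and 515 bp in adult libraries and 0, 276 and 0 bp in neonatal ones, which overlap. By position it had 0, 904 and 0 bp at the neonatal age and 1408, 1254 and 1281 bp in adult libraries, without overlap, through peaks assigned in part to Eef1b2.

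Complex II, succinate dehydrogenase, feeds electrons from the citric acid cycle and has 4 subunits. All 4 genes were marked at the promoter in the adult libraries and in neonatal replicate 2, with 3 genes in neonatal replicate 1 and 1 in neonatal replicate 3. The flavoprotein gene Sdha had 202, 292 and 0 bp in neonatal and 545, 957 and 1112 bp in adult libraries. The iron-sulfur gene Sdhb had 275, 589 and 151 bp and 1114, 1278 and 1180 bp. Of the membrane anchors, Sdhc had 282, 349 and 0 bp against 538, 442 and 477 bp and Sdhd had 0, 270 and 0 bp against 1299, 294 and 1078 bp. In all 4 genes the adult libraries lay above the neonatal ones, narrowly at Sdhd, where adult replicate 2 had 294 bp and neonatal replicate 2 had 270 bp. The ratio for the complex was 6.15, and 10.1 without neonatal replicate 2.

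Complex III, the cytochrome bc1 complex, had promoter peaks on 3, 6 and 1 of 7 genes in neonatal and on 5, 7 and 5 in adult libraries, over 657, 2837 and 367 bp and 3801, 4658 and 5546 bp (ratio 5.24, and 9.40 without neonatal replicate 2). Uqcrc1, a core protein, was the gene of this complex with a peak in all 6 libraries, at 223, 412 and 367 bp in neonatal and 486, 552 and 901 bp in adult libraries. Its ratio of mean cover was 1.94, while that of its partner core protein Uqcrc2 was 6.50. Uqcrfs1, the Rieske iron-sulfur protein, overlapped between the ages, with 620 bp in neonatal replicate 2 and 484 bp in adult replicate 2. The small subunit genes Uqcrb and Uqcrq each had an assigned promoter peak in adult replicate 2 alone among the adult libraries (880 and 512 bp), although peaks assigned to the neighbours Gm10767 and Gdf9 reached their promoters.

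Complex IV, cytochrome c oxidase, had promoter peaks on 3, 12 and 5 of 16 genes in neonatal and on 12, 12 and 14 in adult libraries. They covered 960, 5198 and 908 bp and 8841, 7804 and 13002 bp, a ratio of 5.83 that was 10.3 without neonatal replicate 2. Cox5a, a subunit made in all tissues, had 212, 806 and 201 bp in neonatal and 972, 990 and 1227 bp in adult libraries. Cox5b overlapped between the ages, at 0, 941 and 206 bp against 770, 781 and 983 bp. Cox6c and Cox7c, small membrane subunits, did not overlap and had ratios of mean cover of 8.35 and 3.97.

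Several complex IV subunits exist as a general form and a form known from heart, muscle, lung or testis. Cox4i1, the general form, had 0, 509 and 0 bp in neonatal and 820, 509 and 1383 bp in adult libraries, while Cox4i2, known from lung, had none in neonatal libraries and 209, 152 and 0 bp in adult ones. For the heart and muscle forms, Cox6a2 and Cox7a1 had cover in adult replicate 3 alone (529 and 177 bp), whereas their general partners Cox6a1 and Cox7a2 had 583, 342 and 1281 bp and 1111, 925 and 785 bp in adult libraries. The restricted forms of these 3 subunits thus had less assigned cover than the general forms in each adult library. By position this did not hold for Cox6a2, which had 821, 1270 and 1816 bp in adult libraries against 921, 784 and 1281 bp at Cox6a1.

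Cox6b2, known from testis, did not follow this order. It had 0, 171 and 0 bp in neonatal and 1242, 1300 and 1652 bp in adult libraries, more in each adult library than its general partner Cox6b1 with 366, 828 and 1204 bp. The authors' fold enrichment of the strongest promoter peak went the other way. It was 5.41, 4.55 and 6.18 for Cox6b2 and 6.23, 7.09 and 6.19 for Cox6b1 in adult libraries, nearly equal in replicate 3. Ndufa4l2, the relative of Ndufa4 that is known as a hypoxia gene, had a promoter peak in all 6 libraries, at 303, 651 and 188 bp in neonatal and 832, 254 and 1128 bp in adult libraries, which overlap. Ndufa4 itself, a subunit long listed with complex I and now with complex IV, had an assigned promoter peak in neonatal replicate 1 alone (445 bp).

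Complex V, the ATP synthase, was marked most evenly across ages of the 5 complexes by its ratio of covered length. Promoter peaks lay on 9, 16 and 8 of 16 genes in neonatal and on 15, 14 and 14 in adult libraries, over 2847, 10327 and 2539 bp and 13498, 12819 and 18366 bp (ratio 3.49, and 5.47 without neonatal replicate 2). Of the 15 genes with a peak in all 6 libraries 6 belong to this complex, namely Atp5a1, Atp5d, Atp5g2, Atp5g3, Atp5j2 and Atp5mpl. Neonatal replicate 2 had a promoter peak on every one of the 16 genes, 1 or 2 more than each adult library.

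The catalytic head is built from the products of Atp5a1 (α), Atp5b (β), Atp5c1 (γ), Atp5d (δ) and Atp5e (ε). Atp5a1 had 412, 833 and 182 bp in neonatal and 1096, 773 and 1187 bp in adult libraries, which overlap, and its partner Atp5b had 167, 331 and 0 bp against 363, 596 and 770 bp. Atp5d had 162, 574 and 164 bp against 1911, 1300 and 2711 bp, a ratio of mean cover of 6.58. That was the largest ratio among the 15 genes with a peak in all 6 libraries. The cover of Atp5d is summed over more than 1 start in the lists. By position around its RefSeq start it had 0, 819 and 214 bp in neonatal and 2244, 1584 and 1980 bp in adult libraries, in part from peaks assigned to Cbarp.

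The membrane rotor is a ring of c subunits made from Atp5g1, Atp5g2 and Atp5g3, of which Atp5g1 has no row in the lists used here. Atp5g2 had the longest neonatal cover of the 80 genes in replicates 1, 2 and 3, with 880, 2058 and 711 bp, against 2337, 2614 and 3013 bp in adult libraries. Atp5g3 had 307, 1214 and 604 bp against 1254, 1621 and 1547 bp. Both genes had a peak among the strongest of every library, and their ratios of mean cover were 2.18 and 2.08. In the stalk and membrane part, Atp5h (subunit d) had 0, 176 and 0 bp against 329, 197 and 288 bp, and Atp5mpl had 268, 359 and 294 bp against 958, 745 and 1396 bp. Atp5j2 (subunit f) overlapped, at 261, 800 and 268 bp against 1021, 793 and 1394 bp. Atp5md and Atp5pb each lacked an assigned promoter peak in 1 adult library, adult replicate 2 and adult replicate 3. Cox7a2l, outside the complexes, had 370, 951 and 0 bp against 999, 1063 and 1401 bp.

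Since adult lists are longer, the 7353 strongest peaks of each list, as many as the shortest list holds, were also compared. Among them the genes with a promoter peak numbered 22, 41 and 22 in neonatal and 35, 28 and 29 in adult libraries, so that the ages overlapped and the difference in means was 2.33 genes in place of 30.3. All genes had shares of 29.8%, 34.1% and 30.3% and of 32.8%, 29.2% and 30.1% by this count, beside 27.5%, 51.3% and 27.5% and 43.8%, 35.0% and 36.3% of the 80. For complex I the counts were 5, 16 and 7 in neonatal and 14, 12 and 12 in adult libraries, and for complex V 8, 13 and 8 and 9, 8 and 8. The means of complexes II and V were lower in adult libraries by this count (2.00 against 2.33 and 8.33 against 9.67 genes). Not a single gene had such a peak in the 3 adult libraries together while lacking it in all neonatal ones, beside 2.2% of all genes. Atp5j2 and Ndufa4l2 had such a peak in the 3 neonatal libraries and no adult one, 2 genes beside 2.45%. Ndufv2, Cox5a, Atp5a1, Atp5g2 and Atp5g3 had one in all 6 libraries, 5 genes beside 12.2%. In all 3 adult libraries 17 genes had one, beside 21.9%. More cover in every adult than in every neonatal library was found for 13 of the 80 genes, beside 18.7%, and less for the same 2 genes, Atp5j2 and Ndufa4l2, beside 2.5%.

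**Figure D2:**
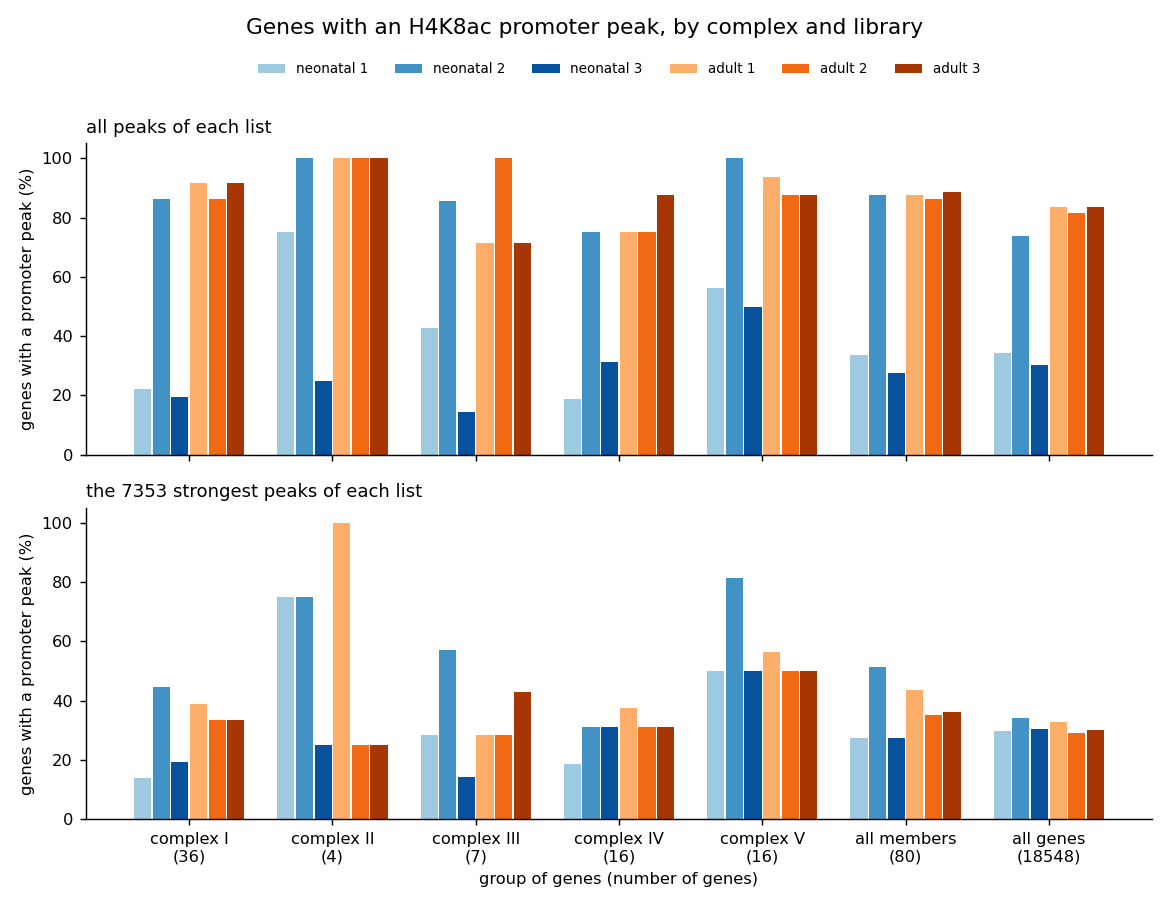
Share of genes with an H4K8ac promoter peak (y axis, percent) for each complex, all 80 genes and all 18548 genes with a promoter peak, in the 6 libraries (bars); above, all peaks, and below, the 7353 strongest of each list. With all peaks the 80 genes run from 27.5% to 87.5% in neonatal and from 86.3% to 88.8% in adult libraries, and with the strongest from 27.5% to 51.3% and from 35.0% to 43.8%.

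Within a list the strength of a gene's strongest promoter peak was read from its fold enrichment, a value of the authors. It was ranked among the strongest promoter peaks of all genes with one in that list. The strongest promoter peak of each of the genes had a median percentile of 47.1, 55.8 and 43.9 in neonatal and 60.1, 63.1 and 60.6 in adult libraries. The median width of the genes' promoter peaks was 239, 337 and 188 bp in neonatal and 491, 504 and 608 bp in adult libraries, beside 276, 382 and 269 bp and 469, 469 and 590 bp over all promoter peaks. Peaks on these genes were thus narrower than the median promoter peak in each neonatal library and slightly wider in each adult one, without a test.

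Several of these genes share a promoter with a neighbour, and a peak is assigned to a single gene. In RefSeq, 17 of the 63 genes with an entry in the promoter table (27.0%) had a protein-coding gene starting back to back within 1000 bp, compared with 8.48% of 17492 protein-coding genes. Ndufs3 starts 19 bp from Kbtbd4, Sdhd 52 bp from Timm8b, a gene of mitochondrial protein import, and Ndufa11 63 bp from Vmac. Atp5j (subunit F6) starts 148 bp from Gabpa, which encodes the DNA-binding part of GABP, itself known to bind promoters of respiratory genes.

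In 3 of these 17 genes, Atp5j, Ndufs3 and Ndufa4, no adult promoter peak was assigned although peaks lay at the start. Atp5j had an assigned promoter peak in neonatal replicate 2 alone, but by position its promoter was covered over 812, 1311 and 537 bp in neonatal and 1836, 1936 and 1915 bp in adult libraries. The adult lengths equal those assigned to Gabpa, so these are the same peaks. Ndufs3, a core subunit of complex I, went from no assigned adult peak to 936, 1147 and 1204 bp, with 0, 621 and 0 bp in neonatal libraries, through peaks assigned to Kbtbd4. Ndufa4 went to 1306, 1616 and 1973 bp in adult and 445, 1021 and 0 bp in neonatal libraries, through peaks assigned to Phf14.

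Read by position, that is by any peak within 3000 bp of a start whichever gene it was assigned to, 34, 75 and 30 of the 80 genes were marked in neonatal and 76, 76 and 78 in adult libraries. All 4 genes of complex II, all 7 of complex III and all 16 of complex V were then marked in each adult library. More cover in every adult than in every neonatal library was found for 65 genes by position, beside 69.1%, and less for none, beside 0.189%. A peak in all 3 adult libraries was found for 75 genes, beside 82.3% of all genes, and in all 6 libraries for 22, beside 28.5%. For 1 gene, beside 10.6%, every adult library had such a peak and the neonatal ones none, and for no gene, beside 0.0377%, was it the reverse. The adult-marked gene was Cox6a2, whose adult cover by position, 821, 1270 and 1816 bp, came in part from peaks assigned to Itgad. The 5 genes without a peak in all 3 adult libraries by position were the copies Ndufb4c and Ndufs6b, the restricted isoforms Cox4i2 and Cox7a1, and X-linked Cox7b.

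**Figure D3:**
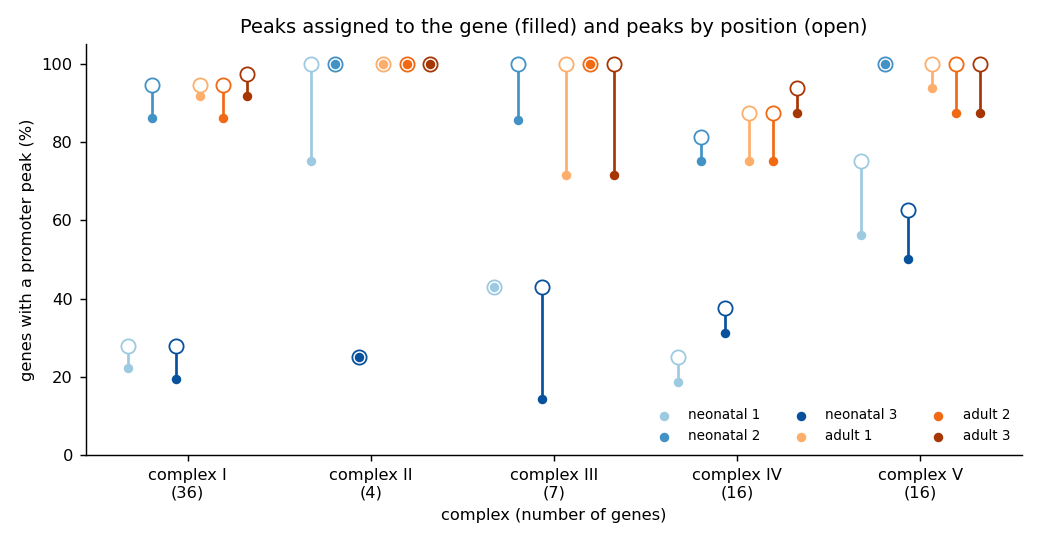
Share of the genes of each complex with a promoter peak (y axis, percent) in the 6 libraries, counting peaks assigned to the gene (filled) or any peak within 3000 bp of its start (open). Complex III moves from 5, 7 and 5 to all 7 genes in adult libraries, and complex V from 15, 14 and 14 to all 16.

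Of 90 RefSeq genes that match the rule, 10 have no row in the lists used here. For Uqcrh, a hinge subunit of complex III, peaks assigned to Lrrc41 covered its promoter by RefSeq position over 713, 2136 and 882 bp in neonatal and 2521, 2517 and 2795 bp in adult libraries. Ndufb1 was likewise covered over 637, 984 and 484 bp and 1103, 1119 and 1168 bp, by peaks assigned to Cpsf2 or to Ndufb1-ps. Both were thus marked in all 6 libraries although the rule counts neither. By the same count Atp5g1, Ndufa6, Cox7b2 and Ndufb4b had no cover in any library, and Cox8b had 139 bp in adult replicate 1 alone.

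Around the starts the mark had the shape of a gap between 2 flanks. Counted over the 80 genes at steps of 50 bp, cover was greatest 150 bp downstream of the start in neonatal replicates 1 and 2 and in all adult libraries, and 200 bp downstream in neonatal replicate 3. At that point 23, 63 and 19 genes were covered in neonatal and 67, 68 and 70 in adult libraries. A flank upstream peaked between 300 and 350 bp before the start in adult libraries, with 57, 60 and 69 genes, and at 300 bp in neonatal replicate 2 with 41. In neonatal replicates 1 and 3 the upstream flank held at most 6 and 3 genes. Between the flanks, 50 to 100 bp before the start, cover was down to 35, 37 and 46 genes in adult libraries and 16 in neonatal replicate 2.

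Over all genes the gap was shallower at the same positions. At 50 bp upstream 43.8%, 46.3% and 57.5% of the 80 genes were covered in adult libraries, compared with 47.2%, 42.0% and 52.5% of all genes. At 350 bp upstream the values were 71.3%, 68.8% and 86.3% compared with 45.5%, 45.0% and 54.0%, and at 150 bp downstream 83.8%, 85.0% and 87.5% compared with 66.5%, 64.3% and 69.1%. They were thus above all genes on both flanks in each adult library and within 5 percentage points of them in the gap. The shares describe the same libraries and were not tested. In adult libraries cover stayed above 50% of its maximum from at least 550 bp upstream to at least 500 bp downstream, while in neonatal replicates 1 and 3 it did so from 100 to 300 bp and from 50 to 250 bp downstream.

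**Figure D4:**
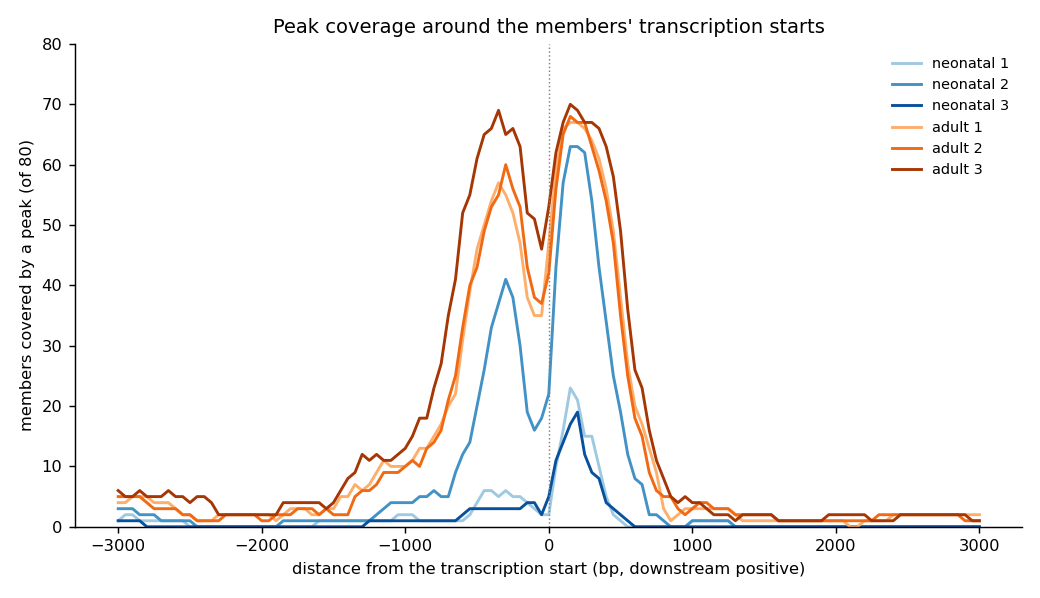
Number of the 80 genes covered by any H4K8ac peak (y axis) against distance from the transcription start in bp (x axis, downstream positive), a line for each of the 6 libraries. The adult lines reach 67 to 70 genes 150 bp downstream, fall to 35 to 46 just upstream of the start and rise again to 57 to 69 further upstream.

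The authors' deposited table lists sites that differ between the ages, all with an adjusted p below 0.05. Positive log2 fold changes were read as higher in adult cells, because adult replicates 1, 2 and 3 had a peak on 85.0%, 89.4% and 96.7% of the positive sites, and neonatal replicates 1, 2 and 3 had one on 11.7%, 27.8% and 10.3%. In the authors' deposited table a total of 59 of the 80 genes had a promoter site, and the site with the smallest p was higher in adult cells for all 59, beside 64.4% of all genes for adult and 0.679% for neonatal. By complex, 30 of 36 genes of complex I, 4 of 4 of complex II, 3 of 7 of complex III, 10 of 16 of complex IV and 11 of 16 of complex V had such a site.

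The size of these differences was modest beside that of other genes. The log2 fold changes of the 59 genes in the authors' deposited table ran from 1.01 to 5.64 with a median of 1.47, beside a median of 1.77 over 12071 genes with a promoter site, and 45 of the 59 lay below that median. Medians by complex in the authors' deposited table were 1.49, 1.34, 1.32, 1.68 and 1.54 for complexes I to V. All 83 sites of these genes in the authors' deposited table, promoter or not, were higher in adult cells, as were 43630 of its 43880 annotated sites (99.4%).

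Taking for each gene its promoter site of smallest p, the 5 largest values in the authors' deposited table belonged to 4 genes of complex I and 1 of complex V. Ndufs7 had a log2 fold change of 5.64 (adjusted p = 1.88e-06 in the authors' deposited table) at chr10:80253763-80254162, the internal start next to Gamt, while the site at its RefSeq start, chr10:80249410-80249809, had 1.37 (adjusted p = 0.0222). Ndufs6 had 3.00 (adjusted p = 0.00404 in the authors' deposited table) at a site 1 to 2 kb from its start, towards its neighbour Mrpl36, and 1.14 at its own start. For both genes the large value thus lay away from the start in RefSeq. Ndufv1 had 2.77 and 1.76 at its 2 promoter sites in the authors' deposited table, Ndufv2 2.09 and 1.36, and Atp5h 2.06. A further promoter site of Cox6c, not its site of smallest p, had 2.16 in the authors' deposited table (adjusted p = 0.0112). The smallest values in the authors' deposited table were 1.01 for Ndufb8, 1.04 for Atp5mpl, 1.05 for Cox7a2l and 1.06 for both Atp5g3 and Ndufs4. Of these 5 genes, Atp5g3, Atp5mpl and Ndufs4 had a promoter peak in all 6 libraries.

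Larger values were found away from promoters. In the authors' deposited table the median over all annotated sites was 2.41, beside 1.86 over promoter sites of all genes. Peaks of the distal intergenic class were assigned to Atp5mpl, Cox7a2l, Ndufv1 and Uqcr10 in all 3 adult libraries. At Atp5mpl they covered 1115, 891 and 1876 bp in adult and none in neonatal libraries, and at Ndufv1 1035, 1647 and 1627 bp and none. In the authors' deposited table the distal sites reached log2 fold changes of 7.07 at Atp5mpl, 5.76 at Cox7a2l, 4.96 at Atp5g2, 3.94 at Uqcr10 and 2.24 at Ndufv1. A distal site is tied to these genes by nearness alone, and its target was not tested. Outside promoters the 80 genes held 0, 6 and 0 peaks in neonatal and 19, 18 and 23 in adult libraries. Their promoter peaks numbered 28, 92 and 23 and then 101, 97 and 100. Over all genes, 7755 of 9097, 21065 of 31189 and 6531 of 7353 peaks were of the promoter class in neonatal libraries. In adult libraries 31730 of 72278, 31288 of 72661 and 31142 of 77002 were, so all genes together also held more peaks outside promoters there.

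**Figure D5:**
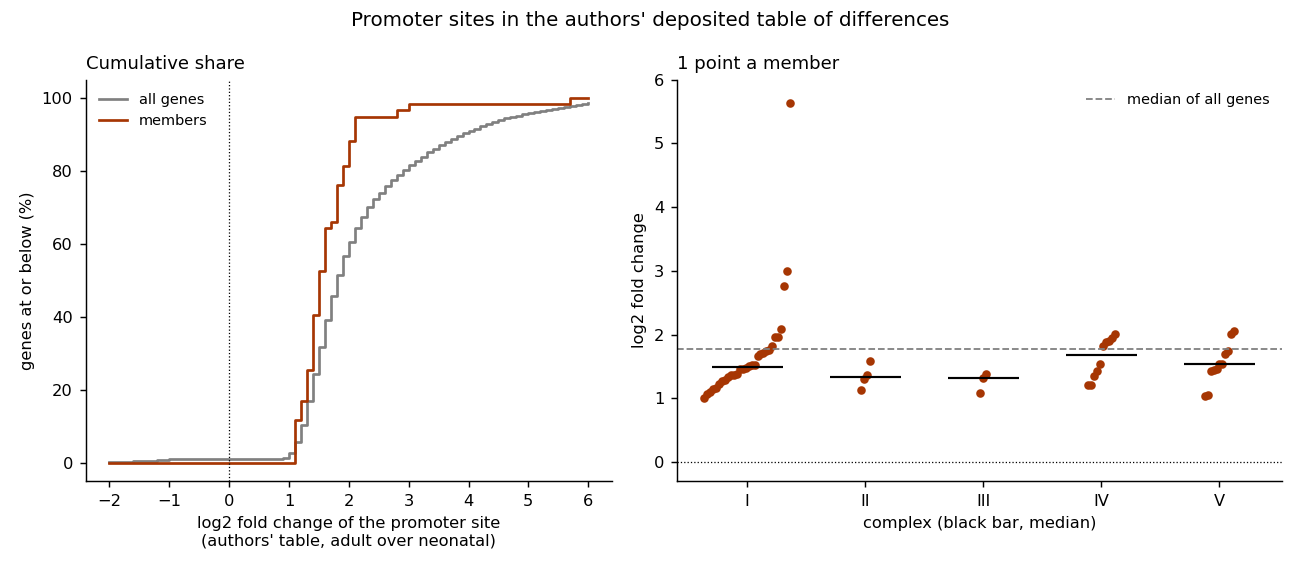
Log2 fold change, adult over neonatal, of the promoter site with the smallest p of each gene in the authors' deposited table; left, cumulative percent of genes for the 59 oxidative phosphorylation genes and for all genes, and right, each of the genes by complex with the median of its complex (black bar) and of all genes (dashed). All 59 values are above 0 and 45 are below the median of all genes, 1.77.

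Other genes of mitochondrial respiration, taken from lists of names, are set beside all genes with a promoter peak. Of all these genes 34.4%, 73.9% and 30.3% were marked in neonatal and 83.6%, 81.5% and 83.5% in adult libraries, with a ratio of covered length of 6.36. Of 47 assembly factors, which help to build the complexes, 8, 40 and 12 had a promoter peak in neonatal and 41, 41 and 40 in adult libraries. As shares these are 17.0%, 85.1% and 25.5% and then 87.2%, 87.2% and 85.1%, with a ratio of 7.13. Lyrm7, an assembly factor of complex III, had the largest value of this list in the authors' deposited table, a log2 fold change of 5.03, with 0, 458 and 0 bp against 1144, 1066 and 1297 bp. In all, 36 assembly factors had a promoter site in the authors' deposited table, each higher in adult cells, with a median of 1.44. Of all genes with a promoter peak 65.1% had such a site in the authors' deposited table, and 11945 of those 12071 genes were higher in adult cells, with the median of 1.77 given above. Of the 5 names of subunits and carriers outside the rule, Usmg5 is an older name of Atp5md, and the other 4, Ndufab1, Cyc1, Cycs and Atpif1, each had a site higher in adult cells in the authors' deposited table, between 1.29 and 1.77.

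The citric acid cycle, which supplies the electrons, had promoter peaks on 8, 16 and 8 of 16 genes in neonatal and on all 16 in each adult library. Dlst, a part of the oxoglutarate dehydrogenase complex, had 415, 937 and 0 bp against 2634, 2511 and 3413 bp. The authors' deposited table gives it a log2 fold change of 3.56, above all but 1 of the promoter values of the oxidative phosphorylation genes. Sites of 15 of the 16 genes were in the authors' deposited table, all higher in adult cells, with a median of 1.58. Over all genes 65.1% had a promoter site there, of which 99.0% were higher in adult cells, with a median of 1.77.

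Regulators of respiratory genes were marked on 7, 11 and 8 of 13 genes in neonatal and on 13, 12 and 12 in adult libraries. The neonatal shares of 53.8%, 84.6% and 61.5% were above the 34.4%, 73.9% and 30.3% of all genes. The ratio of covered length was 3.26, beside 6.36 over all genes. Nrf1, which encodes the factor named above, had 897, 1978 and 1209 bp in neonatal and 2484, 1921 and 3959 bp in adult libraries, which overlap. Polrmt and Tfb2m, the mitochondrial RNA polymerase and a factor it needs, had no neonatal cover and 956, 1047 and 951 bp and 371, 385 and 409 bp in adult libraries. Ppargc1a, a coactivator that raises mitochondrial number in many tissues, had 0, 436 and 0 bp in neonatal and 257, 0 and 0 bp in adult libraries and no site in the authors' deposited table. Of the 13 regulators 11 had a site in the authors' deposited table, each higher in adult cells, with a median of 1.59, beside the same 65.1%, 99.0% and 1.77 over all genes.

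The promoter sequences share features that the rule did not use. Among the 63 windows of these genes from RefSeq 27.0% held the NRF1 core, 25.4% the ETS motif, 17.5% the YY1 motif, 39.7% the GC box and 9.52% the TATA box, on either strand, spelled as above, and no spelling lies within another. Among all 32851 windows from RefSeq the shares were 7.76%, 8.86%, 6.34%, 35.7% and 13.6%. Among the 15478 windows of genes with a promoter peak in any list, which are a closer comparison, they were 12.3%, 14.6%, 6.54%, 58.5% and 7.56%. The NRF1 core, ETS and YY1 letters were thus more frequent in these windows than in either background and the GC box letters less frequent than in windows of marked genes, as a description. The median number of CG was 19 in these windows, 19 in windows of genes with a promoter peak and 7 in all windows. By example, Ndufs6 holds the NRF1 core and YY1 letters and Sdhd the NRF1 core, ETS and GC box letters in the windows printed above. Ndufa11, with 890 to 1205 bp of adult cover, holds none of the 5 spellings. Each motif was searched in a single spelling on either strand, so a window without a match may hold the motif in other letters.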

How the data were processed

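H4K8ac libraries of 3 neonatal and 3 adult OPC samples were analysed, grouped by the ages in the labels. The submitters' processing notes name Trim Galore, Bowtie2 2.4.5, SAMtools, deepTools, MACS2, DiffBind, ChIPseeker and the build GRCm38, without the role of each or the use of input. Per the file headers, the authors deposited 1 annotated peak list per library, not pooled, with a score, a fold enrichment (a linear ratio), and −log10 of p and q for each peak. The authors also deposited a table of sites that gives a p-value, its adjusted value and a log2 fold change for each, and whose scaling of reads is not given in the sources used here. All lists have q below 0.05. Read numbers are not in these files, so counting error is unknown, and longer lists give more cover.

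A gene's promoter cover is the summed length of its peaks of the promoter class. Peaks counted by position used the starts given in the lists. A site of the authors' table took the gene of the peak that shares the most bases with it. Single genes were tested with an exact two-sided permutation test over 20 arrangements, with Benjamini-Hochberg adjustment over all 18548 genes. Counts over the genes have no test. Functions were checked against known answers on simulated data. Python 3.11.15, numpy 2.4.6, pandas 2.3.3, scipy 1.17.1 and matplotlib 3.10.9 were used. RefSeq tables of GRCm38.p6 gave promoter windows for 63 of the 80 genes, and 17 were not matched.

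The genes, the lists and the rules were chosen with earlier results of these data known. Genes were named if they lacked a promoter peak in an adult library, were marked at a single age, were at the extremes of the ratio or of the authors' fold changes, had distal peaks in all adult libraries, or belonged to complex II, the c subunits or the isoform sets. Other genes given with values were picked after these were seen. Alternatives were the strongest peaks, a q limit of 0.005, a promoter limit of 1000 bp, peaks by position, leaving out each library, other rules for the authors' sites, and a replicate block.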

Additional observations from a re-analysis of the deposited data

How the results depend on the processing

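With the 7353 strongest peaks of each list, the difference in the number of marked genes was 2.33, the number of adult-only genes 0, the number with more cover in every adult library 13, and the difference in the share of promoter peaks 0.0555 percentage points, of opposite sign to the -0.0668 with all peaks. That share difference was also of opposite sign, 0.00676, with peaks within 1000 bp. By complex the difference in marked genes turned to -0.333 for complex II and -1.33 for complex V with the strongest peaks, as did the difference in mean cover of Atp5mpl (-39.0 bp), Cox7a2l (-123 bp), Sdhb (-154 bp), Sdhc (-31.0 bp) and Uqcr10 (-162 bp), and of Atp5j2 (-443 bp) and Ndufa4l2 (-381 bp), whose ages overlapped with all peaks. By position the difference went from negative to positive for Atp5j (1009 bp), Ndufa4 (1143 bp), Ndufs3 (889 bp) and Uqcrq (1085 bp). Leaving out 1 library turned that of Cox7b, Ndufs1 and Uqcrq, by less than the spread between libraries. The cause was not tested.

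Leaving out 1 library at a time gave between 1 and 33 adult-only genes, the latter without neonatal replicate 2. It gave 2 without adult replicate 2 and 3 without adult replicate 3. By RefSeq starts, an alternative chosen after seeing the data, 0 genes were adult-only. At an adjusted p below 0.005 in the authors' deposited sites, 28 genes had a promoter site higher in adult cells, with a median log2 fold change of 1.73. As a replicate block, the number of genes with more adult cover in each same-numbered pair was 52, against 50 without it, and the exact sign permutation called 0 genes (smallest possible p 0.25, with 0 genes at an unadjusted p below 0.05). That smallest p was reached by 52 of the 79 genes tested, beside 11852 of all 18548, in either direction. The deviations of same-numbered libraries had correlations of -0.0359, 0.0135 and 0.0616, within the range of differently numbered ones (-0.0856 to 0.0723). Whether same-numbered libraries were handled together cannot be told from these values. In all, 53 values of the main results under the alternatives kept their direction, and stayed within the spread between libraries or, for counts, within 1.5 times, or, for the median log2 fold change, within 0.1. A further 9 moved by more than this and 2 turned direction. The spread includes neonatal replicate 2, which stood apart. Of the values by complex or by single gene 453 kept their sign, 21 turned it and 26 went to 0. Libraries of few peaks limit what can be said of neonatal genes: a missing peak there does not show that the mark is absent.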
